A study of Mus musculus with 35 samples.

Results

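The nuclear genes of oxidative phosphorylation were represented by 80 genes, out of 17097 genes that the array's annotation ties to a probe set of their own. A probe set was counted when its annotation named 1 nuclear gene alone and that gene's symbol was one of an enzyme complex: Nduf subunits for complex I, Sdh for complex II, Uqcr and Cyc1 for complex III, Cox4 to Cox8 for complex IV, and Atp5 for complex V. This gave 136 of 45037 probe sets, and each gene was read through the one with the highest mean over all arrays. Complex I had 34 genes, complex II 4, complex III 8, complex IV 17 and complex V 17. Genes were assigned by symbol, so Ndufa4, now regarded as a subunit of complex IV, is counted with complex I. Ndufa4 was not called at 120 ppm (difference -0.01). The complex I subunit Ndufab1 falls outside the symbol rule and is not among the 80. It is given below with the electron carriers. The genes were measured in livers of adult male wild-type C57Bl/6 mice, each of which breathed styrene vapour or air once for 6 hours in a wire-mesh cage of its own and was killed on the morning after. Styrene, the monomer of polystyrene, was given at 1, 5, 10, 20, 40 or 120 ppm, and the air mice served as the controls at 0 ppm. Every group held 5 mice with 1 array each, so 35 arrays in all. Liver RNA was read on Affymetrix 3' arrays, and the values are on a log2 scale, on which a difference of 1 is a doubling. The scale's base is an inference from the range of the values.

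Oxidative phosphorylation is how mitochondria turn the energy of food into ATP. Complexes I and II take electrons from NADH and from succinate and hand them to coenzyme Q, complex III passes them to cytochrome c, and complex IV gives them to oxygen. Complexes I, III and IV pump protons as they work, and complex V, the ATP synthase, makes ATP from the return flow. Most subunits are encoded in the nucleus and a few in mitochondrial DNA, apart from complex II, whose subunits are all nuclear. The liver depends on this pathway to pay for glucose, urea and bile acid production.

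The subunit transcripts were slightly lower in the livers of mice that had breathed the highest styrene concentrations, and no subunit was called higher there. At 120 ppm, 17 of the 80 genes fell against air, 0 rose, and 69 had a fitted difference below 0. That is 86.2% of the subunits below 0, against 40.5% of all probe sets. The 15 called genes with a mean value of at least 10 were at 78.2% to 87.8% of their air level. Among all probe sets, 6.4% were called lower and 13% higher at this concentration. The background differs for bright probe sets, and 65 of the 80 subunits were bright, with a mean of at least 10. Among all 1420 probe sets that bright, 17.7% were called lower and 12.0% higher, against 23.1% of the 65 bright subunits called lower. Of the bright subunits 90.8% had a difference below 0, against 60.5% of the bright probe sets. The share of subunits that fell was therefore near the share of similarly bright probe sets. A call throughout is an adjusted p under 0.05 in limma's moderated test over all 35 arrays, adjusted by Benjamini-Hochberg over all 45037 probe sets.

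For 6 of the subunits on which the results turn, the sequence around the gene's start is given. They are 4 of the largest falls in complexes I and V (Ndufs8, Ndufa11, Ndufs7 and Atp5g1), the complex IV subunit with the smallest p (Cox5a), and 1 core subunit of complex III that was not called (Uqcrc1). Each run holds 100 bases before to 50 bases after the RefSeq gene start, read 5′ to 3′ on the gene's strand in build GRCm38.p6. Capitals mark matches, on either strand, to letters bound by factors known to act on genes of this pathway, GCGCATGCG for NRF1, CCGGAAGT for the ETS factor GABP, AAGATGGC for YY1 and TCAAGGTCA for ERR, and to the TATA letters TATAAA. In Ndufa11 and Uqcrc1 the capitals are 2 overlapping matches to the NRF1 letters, 1 on each strand. In Ndufs7 they are a TATA match followed by a YY1 match downstream of the start. The windows lie at chr19:3912725-3912874, minus strand for Ndufs8; chr17:56717662-56717811, plus strand for Ndufa11; chr10:80249349-80249498, plus strand for Ndufs7; chr9:108936548-108936697, plus strand for Uqcrc1; chr9:57521132-57521281, plus strand for Cox5a; and chr11:96075582-96075731, minus strand for Atp5g1.
Ndufs8: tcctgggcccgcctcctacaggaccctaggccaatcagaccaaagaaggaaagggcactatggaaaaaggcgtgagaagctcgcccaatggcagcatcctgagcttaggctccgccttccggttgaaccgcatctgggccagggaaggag
Ndufa11: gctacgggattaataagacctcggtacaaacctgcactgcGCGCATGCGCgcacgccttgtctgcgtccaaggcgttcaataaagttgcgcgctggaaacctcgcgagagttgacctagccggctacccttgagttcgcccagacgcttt
Ndufs7: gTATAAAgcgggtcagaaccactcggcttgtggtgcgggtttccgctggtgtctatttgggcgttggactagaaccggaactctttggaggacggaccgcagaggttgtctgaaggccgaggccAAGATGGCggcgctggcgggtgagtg
Uqcrc1: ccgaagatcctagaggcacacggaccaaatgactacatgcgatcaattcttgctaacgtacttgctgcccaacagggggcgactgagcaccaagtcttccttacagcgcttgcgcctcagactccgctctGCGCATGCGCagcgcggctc
Cox5a: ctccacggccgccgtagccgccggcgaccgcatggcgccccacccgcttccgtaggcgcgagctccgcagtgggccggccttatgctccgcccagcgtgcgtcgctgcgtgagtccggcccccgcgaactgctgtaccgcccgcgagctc
Atp5g1: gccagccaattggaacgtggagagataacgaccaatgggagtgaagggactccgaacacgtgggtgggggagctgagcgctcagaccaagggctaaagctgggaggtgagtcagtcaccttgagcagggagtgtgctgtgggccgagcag

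Promoters of 63 of the 80 subunit genes were found by gene identifier, 68 promoters in all, each of 250 bases before to 50 after the start. The NRF1 letters occurred in 11.8% of them, against 1.75% of all 32851 promoters in the same collection. YY1 letters were in 14.7% of subunit promoters and 2.75% of all. For the ETS letters the shares were 5.88% and 3.89%, for ERR 2.94% and 0.423%, and for TATA 13.2% and 13.6%. Among the 16 promoters of subunits that fell at 120 ppm, 12.5% held the NRF1 letters and 18.8% the YY1 letters. ETS letters and ERR letters were in 0 of these 16. Among the 52 promoters of subunits with no call, 11.5% held the NRF1 letters and 13.5% the YY1 letters. ETS letters were in 4 of the 52 and ERR letters in 2, too few for a comparison of the groups. A match is a description of the letters in the window and no more.

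No subunit was called at the low concentrations. At 1 ppm 0 of 80 passed limma's test, with 5 at an unadjusted p under 0.05, and 0.00444% of all probe sets were called there. At 5 ppm the count was again 0, with 8 at an unadjusted p under 0.05 and 0.153% of all probe sets called. For 10 ppm it was 0, with 5 unadjusted and 0.0% of all probe sets called. At 20 ppm it was 0, with 9 unadjusted, while 1.03% of all probe sets were called. At 40 ppm 8 subunits fell and 0 rose, which is 10.0% of the 80 and 12.3% of the 65 bright ones. Against this stand 4.89% lower and 9.73% higher among all probe sets, and 14.3% lower among the bright probe sets, so the share at 40 ppm was not above that of bright probe sets. That count of 8 became 4 without air mouse 3, and 5 without air mouse 4 or without any 1 of the 40 ppm mice 1, 2, 3 and 5. The 80 subunits had a median difference of -0.014 for 1 ppm, -0.019 for 5 ppm, -0.035 for 10 ppm and -0.018 for 20 ppm. It was -0.054 for 40 ppm and -0.103 for 120 ppm. The median over all probe sets moved the other way over the same range and reached 0.04 at 40 ppm and 0.058 at 120 ppm, while bright probe sets had -0.026 and -0.051. All 6 comparisons share the same 5 air mice.

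**Figure D1:**
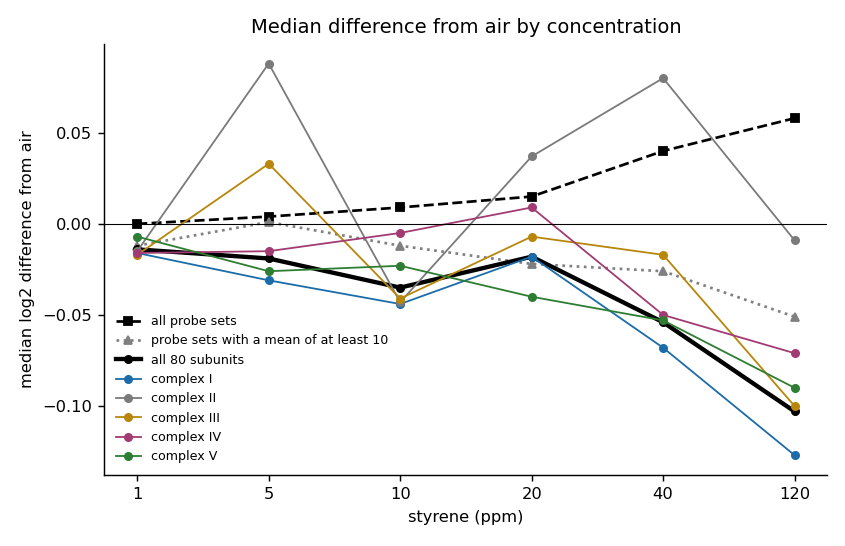
Median log2 difference from air (vertical axis) at each styrene concentration in ppm (horizontal axis, evenly spaced) for all probe sets, probe sets with a mean of at least 10, all 80 subunits and each complex. At 120 ppm the subunits' median was -0.103, against -0.051 for bright probe sets and 0.058 for all probe sets.

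Read over the whole range, 23 subunits declined with concentration and 1 rose, by a slope on log2(ppm + 1), against 10.8% of all probe sets lower and 21.2% higher. Among bright probe sets 26.5% were lower and 18.2% higher by slope, near the 32.3% of the 65 bright subunits that were lower. Of the 17 subunits that fell at 120 ppm, 16 also declined by slope. The 1 that rose was Cox7a2l, at 0.026 ± 0.01 (SE) per doubling of ppm + 1 (adjusted p = 0.0425, limma). Cox7a2l is described as joining complex III and complex IV into supercomplexes. Whether it does so in mice of this strain was not tested. The F test over the 7 groups called 17 subunits, or 21.2%, against 20.4% of all probe sets. For the bright subunits alone it called 23.1%, against 34.9% of bright probe sets. No subunit was called between neighbouring concentrations. The test of 20 ppm against 10 ppm called 0.349% of all probe sets, 40 ppm against 20 ppm 0.373% and 120 ppm against 40 ppm 0.0244%, so the concentration at which the subunits parted from air could not be placed between neighbours. Of the 8 subunits that fell at 40 ppm, 7 also fell at 120 ppm. The exception was Atp5mpl, a small membrane subunit of the ATP synthase, with -0.20 at 40 ppm (adjusted p = 0.03) and -0.07 at 120 ppm (adjusted p = 0.46).

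**Figure D2:**
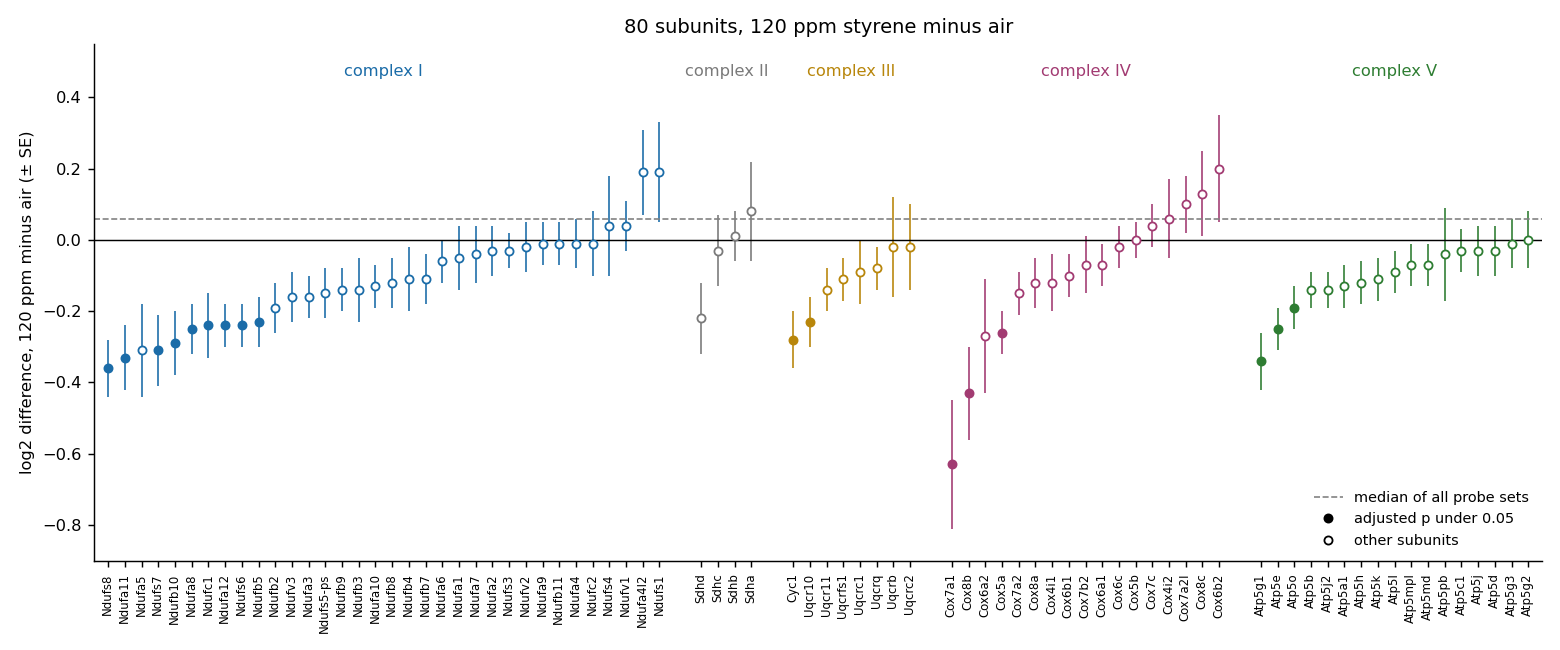
Log2 difference between 120 ppm and air (vertical axis, ± SE of the limma fit) for the 80 subunits, ordered within each complex. Filled points passed the adjusted p threshold, and the dashed line is the median of all probe sets at 0.058. All 17 filled points lie below 0.

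Complex I, the entry point for electrons from NADH and the largest of the complexes, had 9 of 34 genes lower at 120 ppm and a median of -0.127. Beside this stand 17 of all 80 subunits and 17.7% of bright probe sets called lower. Its matrix arm, which carries the electron path, had 4 of 15 lower, and its membrane arm, which pumps protons, had 5 of 16 lower. Ndufs8, an iron-sulphur core subunit of the matrix arm, had log2 values of 11.12, 10.95, 11.07, 11.12 and 11.12 at 120 ppm, against 11.29, 11.46, 11.47, 11.49 and 11.44 in air. Every 120 ppm mouse lay below every air mouse, and the difference was -0.36 ± 0.08 (SE, n = 5 each, adjusted p = 0.00291, limma), or 78.2% of the air level. At 40 ppm Ndufs8 was already -0.26 from air (adjusted p = 0.0309). Its group means over the range were 11.43 in air, 11.33 at 1 ppm, 11.40 at 5 ppm, 11.27 at 10 ppm, 11.20 at 20 ppm, 11.17 at 40 ppm and 11.07 at 120 ppm.

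Ndufs7, the iron-sulphur core subunit next in line to coenzyme Q, read 10.65, 10.64, 10.45, 10.54 and 10.41 at 120 ppm, against 10.73, 10.98, 10.98, 10.87 and 10.68 in air. The groups did not overlap, and the difference was -0.31 ± 0.1 (SE, adjusted p = 0.022, limma). Ndufa11, an accessory subunit of the membrane arm whose promoter carries the NRF1 letters above, read 10.35, 10.34, 10.25, 10.28 and 10.19 at 120 ppm, against 10.64, 10.71, 10.68, 10.59 and 10.43 in air. These groups were also apart, by -0.33 ± 0.09 (SE, adjusted p = 0.00802, limma). Ndufc1, another small membrane-arm subunit, had the smallest F-test p of complex I (adjusted p = 0.00224, limma). That test covers every concentration, and not all of them were lower. At 5 ppm Ndufc1 read 11.62, 11.52, 11.57, 11.4 and 11.55, on average above air though not called. At 20 ppm its values included 10.78 in mouse 5. It read 11.19, 11, 11.12, 11.06 and 11.01 at 120 ppm, against 11.29, 11.51, 11.36, 11.25 and 11.19 in air, so that the groups met at 11.19. Its difference at 120 ppm was -0.24 ± 0.09 (SE, adjusted p = 0.0427, limma), and it stayed past the threshold in 3 of the 10 fits that left out 1 mouse of either group (highest adjusted p = 0.131, without air mouse 2).

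The other 5 complex I genes that fell were the accessory subunits Ndufb10 at -0.29, Ndufa8 at -0.25, Ndufs6 at -0.24, Ndufa12 at -0.24 and Ndufb5 at -0.23. Ndufs6 lay between 10.48 and 10.54 in the 120 ppm mice and between 10.63 and 10.89 in the air mice. Ndufa12 lay between 11.09 and 11.21 in the 120 ppm mice and between 11.33 and 11.49 in the air mice, and neither gene's groups overlapped. Leaving out 1 mouse cost Ndufb10 its call in 3 of 10 fits (highest adjusted p = 0.0596, without 120 ppm mouse 4), Ndufb5 in 3 (0.0698, without air mouse 2) and Ndufs7 in 4 (0.0659, without air mouse 3). Without air mouse 2 or air mouse 3 the number of subunits lower at 120 ppm was 11, in place of 17. The core subunits that receive NADH were not among the falls. Ndufv1, which binds NADH and the flavin, read 11.02, 10.93, 11.02, 11.08 and 10.99 at 120 ppm, against 11.02, 11.01, 10.95, 10.99 and 10.85 in air, a difference of 0.04 ± 0.07 (SE, adjusted p = 0.708, limma). Ndufs1, the largest iron-sulphur subunit, read 8.97, 9.05, 9.12, 8.93 and 9.15 at 120 ppm, against 8.93, 8.73, 8.80, 8.84 and 8.97 in air (0.19 ± 0.14, SE, adjusted p = 0.368, limma). Both pairs of groups overlapped.

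**Figure D3:**
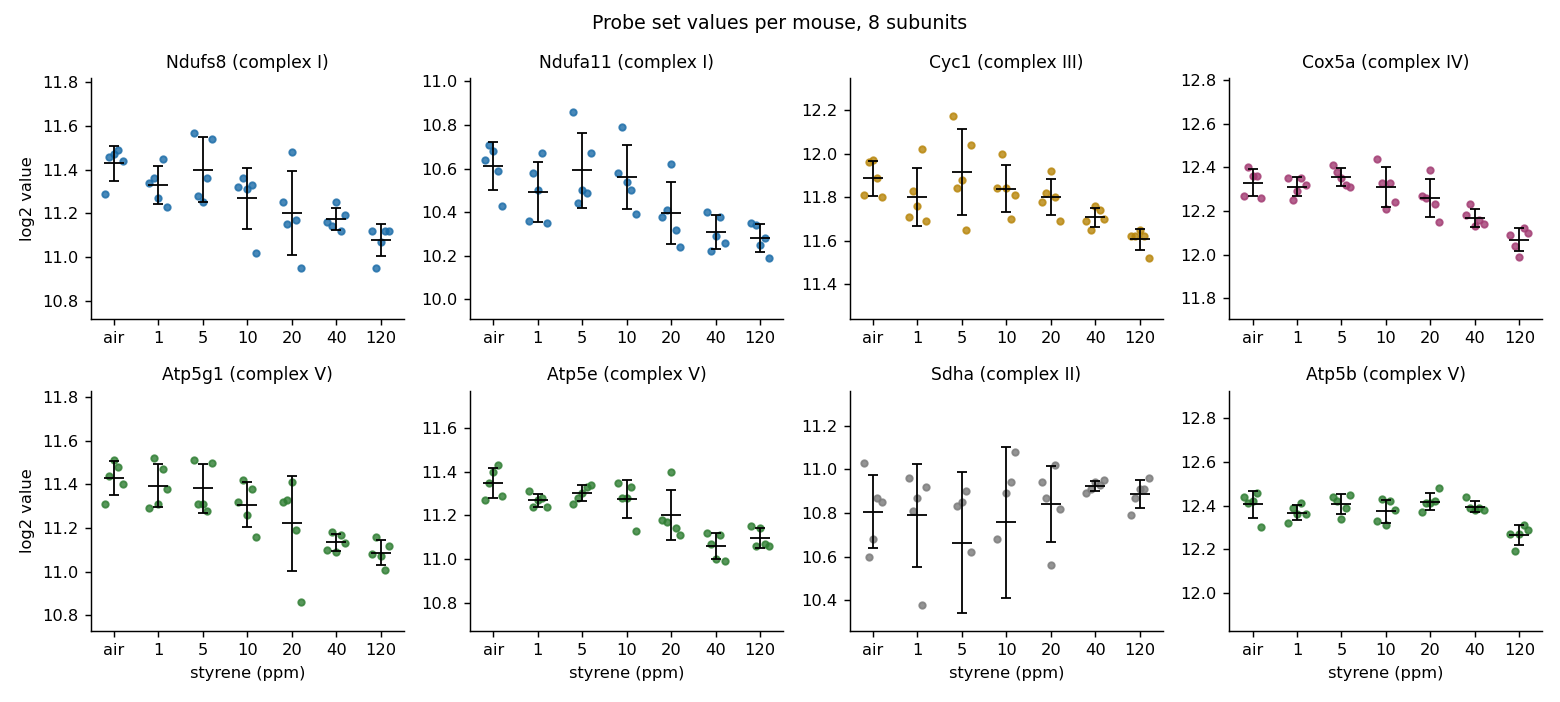
Log2 values of 8 subunits in each mouse (points), with the group mean and SD (bars), for air and styrene from 1 to 120 ppm, 5 mice per group. Each vertical axis spans the same range around its gene's mean. Ndufs8, Ndufa11, Cyc1, Cox5a, Atp5g1 and Atp5e lie below air at 120 ppm without overlap, while Sdha and Atp5b overlap with air.

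Complex II, succinate dehydrogenase, which also serves the TCA cycle, had 0 of 4 subunits called at any concentration, with 1 at an unadjusted p under 0.05 at 120 ppm. Sdha, the flavin subunit that oxidises succinate, read 10.79, 10.87, 10.91, 10.91 and 10.96 at 120 ppm, against 11.03, 10.60, 10.68, 10.87 and 10.85 in air. The 120 ppm values fell inside the air range, and the difference was 0.08 ± 0.14 (SE, adjusted p = 0.724, limma). Sdhb, the iron-sulphur subunit, differed by 0.01 ± 0.07 (SE, adjusted p = 0.932, limma), with means of 11.83 ± 0.07 at 120 ppm and 11.82 ± 0.08 in air (SD, n = 5 each). Sdhc and Sdhd anchor the complex in the membrane. Sdhc differed by -0.03 ± 0.1 (SE, adjusted p = 0.861, limma). Sdhd, whose probe set had a mean of 7.06 over all arrays, read 6.83, 6.96, 6.89, 6.63 and 6.93 at 120 ppm, against 7.05, 7.35, 7.14, 6.97 and 6.83 in air. That is -0.22 ± 0.1 (SE, adjusted p = 0.13, limma), with overlapping groups. Whether complex II differed from the other complexes was not tested.

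In complex III, which passes electrons from coenzyme Q to cytochrome c, all 8 genes were below 0 at 120 ppm and 2 passed the test. Of the bright probe sets 60.5% were below 0 and 17.7% called lower at that concentration. Cyc1, which encodes cytochrome c1, read 11.62, 11.62, 11.65, 11.62 and 11.52 at 120 ppm, against 11.81, 11.96, 11.97, 11.89 and 11.80 in air. The groups did not overlap, and the difference was -0.28 ± 0.08 (SE, adjusted p = 0.0121, limma), or 82.4% of the air level. Uqcr10, a small subunit beside cytochrome c1, read 10.73, 10.71, 10.65, 10.71 and 10.61 at 120 ppm, against 10.98, 10.83, 11.02, 10.92 and 10.81 in air (-0.23 ± 0.07, SE, adjusted p = 0.0128, limma). These groups were apart as well, and Uqcr10 had -0.21 at 40 ppm (adjusted p = 0.028). The Rieske iron-sulphur subunit Uqcrfs1 differed by -0.11 ± 0.06 (SE, adjusted p = 0.189, limma). Uqcrc1, a core subunit whose promoter holds the NRF1 letters, differed by -0.09 ± 0.09 (SE, adjusted p = 0.483, limma).

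Complex IV, cytochrome c oxidase, had 3 of 17 genes lower at 120 ppm, and 1 of them was a subunit of the liver enzyme. The share called lower was 6.4% of all probe sets and 17.7% of bright ones. Cox5a, a nuclear subunit on the matrix side, read 12.09, 12.04, 11.99, 12.12 and 12.10 at 120 ppm, against 12.27, 12.40, 12.36, 12.36 and 12.26 in air. No value was shared between the groups, and the difference was -0.26 ± 0.06 (SE, adjusted p = 0.00193, limma), or 83.4% of the air level. This was the smallest adjusted p of the 80 subunits at 120 ppm. Cox4i1, the common form of subunit 4, read 12.28, 12.27, 12.24, 12.33 and 12.19 at 120 ppm, against 12.36, 12.51, 12.39, 12.44 and 12.22 in air, which overlapped (-0.12 ± 0.08, SE, adjusted p = 0.306, limma).

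The other 2 called genes, Cox7a1 and Cox8b, encode forms of the heart, skeletal muscle and brown fat. Cox7a1 read 3.37, 3.48, 3.47, 3.43 and 3.53 at 120 ppm, against 3.71, 4.76, 3.86, 4.59 and 3.50 in air. The difference was -0.63 ± 0.18 (SE, adjusted p = 0.0127, limma), and 2 air mice, with 4.76 and 4.59, stood above the rest. Without either of these 2 air mice Cox7a1 lost its call (highest adjusted p = 0.0602). Cox8b averaged 3.21 ± 0.24 at 120 ppm and 3.64 ± 0.29 in air (SD, n = 5 each, adjusted p = 0.0195, limma), and lost its call in 3 of 10 fits without 1 mouse (highest adjusted p = 0.0811, without air mouse 3). All 8 probe sets for forms of other tissues or conditions had means of 2.32 to 4.96, inside the range of 1.97 to 6.17 of the 23 nonspecific control probe sets, so their values cannot be told from those controls. The remaining 6 were Cox6a2 of heart and muscle, the lung and low-oxygen form Cox4i2, the testis forms Cox6b2, Cox7b2 and Cox8c, and the low-oxygen gene Ndufa4l2, which is counted with complex I by its symbol. They were not called at 120 ppm, with differences between -0.27 for Cox6a2 and 0.20 for Cox6b2. The summed level of 6 skeletal muscle markers lay between 5.76 and 6.08 at 120 ppm and between 5.91 and 6.15 in air. Of these markers 1 was called lower, as were 1366 of all 17097 genes. The part of skeletal muscle in the Cox7a1 and Cox8b values was not tested. Without the 10 genes that are no structural subunits of the liver complexes, 15 of 70 subunits fell at 120 ppm.

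Complex V, the ATP synthase, had 3 of 17 genes lower at 120 ppm, with all 17 below 0 at both 40 and 120 ppm and a median of -0.09 at 120 ppm. Beside this stand 17.7% of bright probe sets called lower at 120 ppm. Of the bright probe sets 55.6% were below 0 at 40 ppm and 60.5% at 120 ppm. Atp5g1, 1 of 3 genes for the subunit c that forms the rotor ring, read 11.08, 11.16, 11.07, 11.01 and 11.12 at 120 ppm, against 11.31, 11.44, 11.51, 11.48 and 11.40 in air. The groups were well apart, by -0.34 ± 0.08 (SE, adjusted p = 0.00338, limma), or 78.9% of the air level. The other c-ring genes, Atp5g2 and Atp5g3, encode the same mature protein and differed by 0.00 and -0.01. At 20 ppm the Atp5g1 values were 11.32, 11.33, 11.41, 11.19 and 10.86, and the lowest, mouse 5, was also the lowest 20 ppm mouse for Ndufs8, Ndufa11, Cyc1, Cox5a and Atp5e. That mouse was not low throughout. It was the highest 20 ppm mouse for Cox4i1 at 12.7, Ndufv1 at 11.4, Ndufb8 at 11.45, Ndufb7 at 11.15 and Sdhc at 10.9.

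Atp5e, the small epsilon subunit of the rotating stalk, read 11.15, 11.06, 11.14, 11.07 and 11.06 at 120 ppm, against 11.27, 11.35, 11.40, 11.43 and 11.29 in air (-0.25 ± 0.06, SE, adjusted p = 0.00358, limma). Its fall at 40 ppm was -0.29 (adjusted p = 0.00154), with values of 11.12, 11.07, 11, 11.11 and 10.99, all below air. Atp5o, which ties the catalytic head to the outer stalk, was at -0.19 ± 0.06 (SE, adjusted p = 0.0263, limma) at 120 ppm, and the groups overlapped through 1 air mouse. It lost its call in 4 of 10 fits without 1 mouse (highest adjusted p = 0.0784, without air mouse 3). The catalytic pair fell less than these called genes, though by more than the complex V median of -0.09, and was not called. Atp5b, the catalytic beta subunit, read 12.27, 12.19, 12.27, 12.31 and 12.29 at 120 ppm, against 12.44, 12.41, 12.42, 12.46 and 12.30 in air (-0.14 ± 0.05, SE, adjusted p = 0.0523, limma). Atp5a1, the alpha subunit, read 11.74, 11.86, 11.84, 11.87 and 11.77 at 120 ppm, against 12.08, 11.89, 11.92, 11.98 and 11.88 in air. Those groups did not overlap, yet the difference of -0.13 ± 0.06 (SE, adjusted p = 0.115, limma) missed the threshold.

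**Figure D4:**
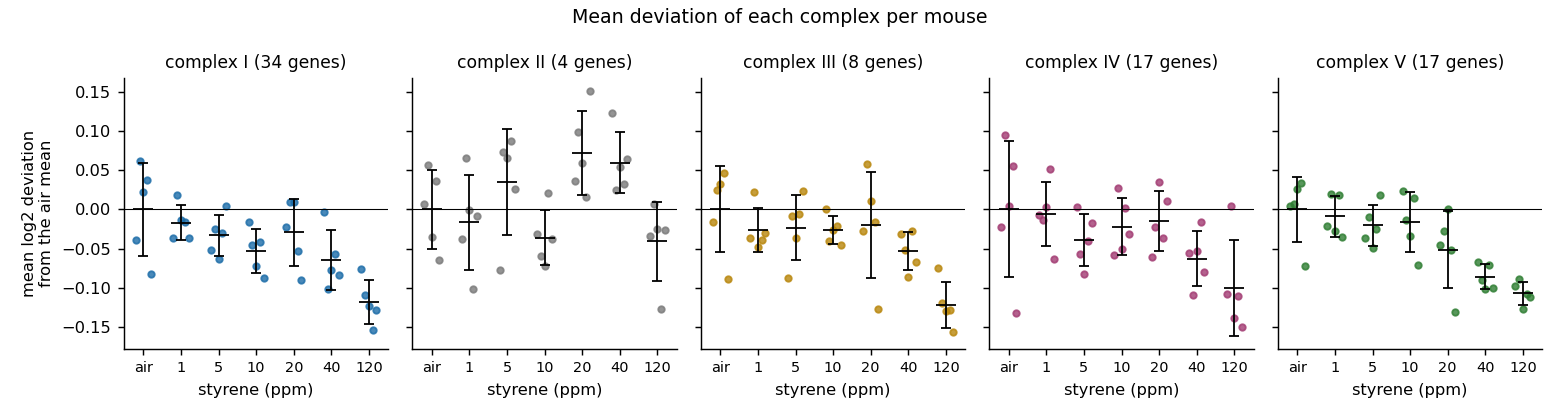
Mean over each complex's genes of the log2 deviation from the air mean (vertical axis) in each mouse (points), with group mean and SD, for air and styrene in ppm. At 120 ppm the means were -0.118 for complex I, -0.041 for II, -0.122 for III, -0.101 for IV and -0.107 for V.

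Averaged over its genes, each complex gave 1 value per mouse. Over all 80 genes the mean deviation was 0 ± 0.058 in air, -0.062 ± 0.027 at 40 ppm and -0.109 ± 0.026 at 120 ppm (SD, n = 5 each). The 120 ppm mice ran between -0.131 and -0.077 and the air mice between -0.091 and 0.053, so these ranges touched. Among the 5 complexes the ranges were apart for complex V alone, with -0.128 to -0.089 at 120 ppm and -0.072 to 0.034 in air. Complex II at 20 ppm lay at 0.073 ± 0.054, and complex II at 120 ppm at -0.041 ± 0.05. These averages over genes were given no test.

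Several values of the arrays themselves moved with concentration. The array median was 3.503 ± 0.0194 in air, 3.572 ± 0.0209 at 40 ppm and 3.598 ± 0.0274 at 120 ppm (SD, n = 5 each). Both concentrations had an exact permutation p of 0.00794 against air and an adjusted p of 0.0286 over 18 tests. Centring each array on its median made the subunit falls larger, with 40 lower at 120 ppm and 16 at 40 ppm and a median of -0.198 at 120 ppm. The same step moved the median of all probe sets at 120 ppm to -0.037, in place of 0.058, and their calls to 34.6% higher, in place of 67.0%. A second quantile normalization left 17 subunits lower at 120 ppm, the same genes, with 46.5% of all calls higher. For the actin control probe sets the difference between 3' and 5' ends, which tracks RNA integrity, was 0.478 ± 0.0475 in air livers, 0.724 ± 0.1093 in 20 ppm livers, 0.706 ± 0.0702 in 40 ppm livers and 0.717 ± 0.0506 in 120 ppm livers (exact permutation, adjusted p = 0.0286 for each of the 3). The GAPDH difference was 0.12 ± 0.0484 at 120 ppm and 0.147 ± 0.0471 in air (exact permutation, adjusted p = 0.505). At 20 ppm it was 0.03 ± 0.2424, a wider spread, with a lowest value of -0.402 (exact permutation, adjusted p = 0.469). The part of RNA integrity in the subunit values was not tested.

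The tissue markers were those of liver, with 8 hepatocyte markers summing to 15.82 to 15.88 at 120 ppm and 15.84 to 15.87 in air. Such a sum is weighted to the brightest markers. Singly, 1 of the 8 was called higher at 120 ppm and 0 lower, with differences between -0.39 and 0.78. As background for the marker counts, 1366 of 17097 genes were called lower at 120 ppm and 1917 higher. Of 10 Kupffer cell markers, genes of the resident macrophages, 5 fell at 120 ppm, and their summed level ran from 10.66 to 11.25 at 120 ppm and from 11.17 to 12.03 in air. Among these Clec4f fell by 0.74 and C1qa by 0.68. In a piece of tissue, fewer cells of a type and less RNA per cell cannot be told apart. The part of other cell types in the subunit falls was not tested.

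Of the 80 genes, 38 had more than 1 probe set, and the 136 probe sets together gave 29 lower and 6 higher at 120 ppm. Cox5a was lower in all 3 of its probe sets, Uqcr10 in all 3, Ndufs8 in 3 of 4, Ndufs7 and Atp5o in both, and Ndufa12 in 2 of 3. Probe sets of 12 genes disagreed in call, namely Atp5c1, Atp5g1, Cox5b, Cox7a2l, Ndufa11, Ndufa12, Ndufa3, Ndufb5, Ndufc1, Ndufs5-ps, which is annotated as a pseudogene, Ndufs8 and Sdha. In sign, Atp5c1, Atp5g1, Cox5b, Ndufa11, Ndufa12, Ndufa7, Ndufb8, Ndufs4, Ndufs8, Ndufv1, Sdha and Uqcrq disagreed. For Ndufa11 the second probe set, with a mean of 3.65, was higher at 120 ppm by 0.50 (adjusted p = 0.00144), against -0.33 in the brighter one. Cox7a2l was higher in 2 of its 3 probe sets, by 0.28 and 0.21, and 0.10 in the brightest.

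**Figure D5:**
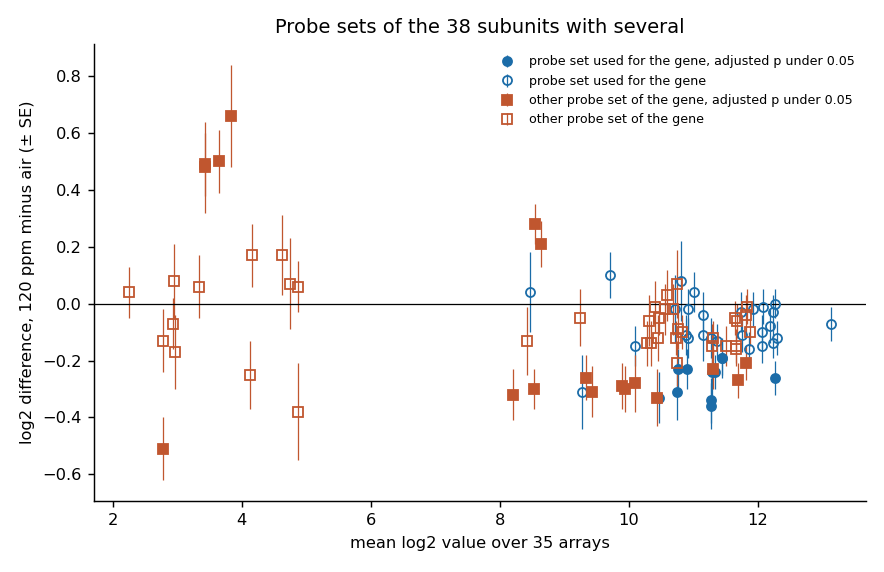
Log2 difference between 120 ppm and air (vertical axis, ± SE) against mean log2 value over 35 arrays (horizontal axis) for each probe set of the 38 genes that have several. Circles are the probe sets used for a gene and squares the others, filled where the adjusted p is under 0.05. Of the 6 higher calls, 4 are squares with a mean under 5 and the other 2 belong to Cox7a2l.

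Other genes of the pathway were read through lists of names. As background for each list here and below, 1366 of 17097 genes were called lower at 120 ppm and 1917 higher. Among bright probe sets 17.7% were lower and 12.0% higher. Of 40 measured assembly factors, proteins that build the complexes without staying in them, 11 fell and 2 rose at 120 ppm, with a median of -0.115. The lower ones included Coa3 at -0.49 ± 0.08 (SE, adjusted p = 0.000197) and Cox18 at -0.50 ± 0.09 (SE, adjusted p = 0.000355), both for complex IV, and Uqcc2 at -0.50 ± 0.1 (SE, adjusted p = 0.000749) for complex III. Coa6, a copper-handling factor of complex IV, was higher by 0.79 ± 0.15 (SE, adjusted p = 0.00062), and Cox16 by 0.20 ± 0.07 (SE, adjusted p = 0.0389). Among 10 electron carriers and feeders 4 fell and 0 rose. These were cytochrome c itself, Cycs, at -0.35 ± 0.09 (SE, adjusted p = 0.00477), the mitochondrial glycerol-phosphate dehydrogenase Gpd2 at -0.93 ± 0.13 (SE, adjusted p = 2.47e-05), Dhodh of pyrimidine synthesis at -0.50 ± 0.14 (SE, adjusted p = 0.0116), and the acyl carrier protein Ndufab1 at -0.33 ± 0.07 (SE, adjusted p = 0.0017). Ndufab1 is also a subunit of complex I. The symbol rule did not take it in, so its fall is not in the counts of the subunits or of complex I.

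Of 9 coenzyme Q synthesis genes 0 were called, with a median of -0.182. In the TCA cycle 1 of 11 fell, citrate synthase Cs at -0.44 ± 0.08 (SE, adjusted p = 0.000558), and 1 rose, Suclg2 at 0.48 ± 0.08 (SE, adjusted p = 0.000143). Of 17 regulators of mitochondrial genes 3 rose and 0 fell, namely the oxygen-sensing factor Hif1a by 0.58, Myc by 0.77 and the mitochondrial transcription factor Tfb2m by 0.37 (adjusted p = 0.00703, 0.0345 and 0.0397). Outside the pathway, 29 of 73 mitochondrial ribosomal protein genes fell and 0 rose (median -0.191), as did 20 of 66 cytosolic ribosomal protein genes (median -0.129) and 4 of 32 proteasome genes (median -0.122). The subunits' median of -0.103 was thus no lower than the medians of these other lists of housekeeping genes. Of the 13 subunits encoded in mitochondrial DNA none is analysed here, nor are the nuclear Ndufs5, Ndufb6, Ndufa13, Uqcrh and Cox7b.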

How the data were processed

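Liver RNA of 35 mice was read on Affymetrix 3' IVT arrays, per the labels' protocols. The deposited table gives log2 values per probe set and array, and RMA and Partek are named, without versions, in the submitters' processing notes. The base of 2 was inferred from a range of 1.74 to 14.23, and nothing further was corrected or normalized. Array number limits precision, and no scanner images were used here.

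The 104 control probe sets were left out. In R 4.3.3, limma 3.58.1 fitted a mean per group to all 35 arrays (28 residual and 5.41 prior degrees of freedom), with contrasts, an F test and a slope on log2(ppm + 1). The Benjamini-Hochberg adjustment ran over 45037 probe sets within each test. The fit was checked on simulated data. SE are of the fit and SD are over 5 mice. Array medians and 3' minus 5' differences were compared by two-sided exact permutation tests over 252 divisions.

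Named genes were up to 3 largest called falls and rises per complex at 120 ppm, the smallest F-test p per complex, any call at 1 to 20 ppm, core subunits, isoforms of other tissues, and all of complex II. Disagreeing probe sets were named as well. Others named beside a count were chosen after their values were seen. The subunits and lists were chosen with earlier results of these data known. Symbols and promoters come from RefSeq tables of GRCm38.p6. The array files name no build. Alternatives tried were centring, quantile normalization, brightness filters, an intensity-dependent prior, array weights and 2-group fits. Further ones were a replicate block, the order of mice within a group, other probe sets, and leaving out each mouse.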

Additional observations from a re-analysis of the deposited data

Results flagged for a closer look

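Of 100 groups of 5 mice looked at for a value far from the other 4, 8 held one, where chance gives about 1 in 20. Ndufs8 had 2. The second 120 ppm mouse read 10.95 while the other 4 lay at 11.07 to 11.12, and the first air mouse read 11.29 while the others lay at 11.44 to 11.49. Without that 120 ppm mouse the Ndufs8 fall at 120 ppm kept an adjusted p of 0.0103 by limma, the highest of the 10 fits without 1 mouse. Cyc1 in the fifth 120 ppm mouse read 11.52, below 11.62 to 11.65 in the others. Atp5b in the fifth air mouse read 12.30, below 12.41 to 12.46. Cox6b2, a dim testis form, read 3.69 in the third air mouse, above 3.32 to 3.41.

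The mean deviation of complex V in the fifth air mouse was -0.072, against 0.005 to 0.034 in the other air mice. For complex IV the second 120 ppm mouse stood at 0.004, against -0.151 to -0.108. For complex III the second 1 ppm mouse stood at 0.022, against -0.048 to -0.03.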

How the results depend on the processing

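Which subunits fell at 120 ppm depended little on most settings, while their number depended on scaling and on the filter. All 17 were still called after a second quantile normalization, an intensity-dependent prior, array weights and a brighter-half filter. They also stayed called with the replicate block and with the order of mice within a group as a linear term. Both terms are balanced over the groups, so they could change the spread but not a difference between groups. Animal numbers rose with concentration, so animal order and concentration cannot be told apart in this design. Centring the arrays gave 16 lower at 40 ppm and 40 at 120 ppm, medians of -0.123 and -0.198, 36 by the F test, and 46 lower and 0 higher by slope. Probe sets with a mean of at least 10, a filter chosen after seeing the data, gave 4 called at 20 ppm, 16 lower at 40 ppm, 28 at 120 ppm, 32 by the F test, 0 higher by slope, and 1 between 20 and 10 ppm. The intensity-dependent prior gave 26 by the F test, and array weights gave 1 called at 20 ppm. Fits of only the 2 groups compared gave 1 higher at 40 ppm, and 12 lower at 120 ppm, 11 of them among the 17. The mean of all probe sets of a gene gave 2 higher at 40 ppm, 2 at 120 ppm and 2 by slope, and kept 13 of the 17 at 120 ppm. It turned Ndufa11 to 0.088, through its dim second probe set. Structural liver subunits alone gave 0 higher by slope. Leaving out 1 mouse gave 0 to 1 called at 20 ppm, 4 to 10 lower at 40 ppm, medians there of -0.075 to -0.030, 11 to 20 lower at 120 ppm, medians there of -0.121 to -0.085, 12 to 19 by the F test, 19 to 26 lower by slope and 0 to 1 higher. The lowest count at 40 ppm, 4, came without air mouse 3, and the highest at 120 ppm was 20. Replicate numbers did not pair the mice, since same-numbered mice correlated at a mean of 0.0328 and a minimum of -0.3944, so the replicate block is only an alternative, with 17 lower at 120 ppm, 9 at 40 ppm, 15 by the F test and 22 lower by slope. Of the changes of named genes at 120 ppm, 527 alternatives left the call as it was, 26 lost it, 12 gained it and 1 turned the direction. Beyond the changes whose construction is given, the cause was not tested.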
